A study of Mus musculus with 3 samples.

Results

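The genes that mark the non-beta cells of the pancreatic islet were examined for H3K27ac, the acetyl mark that histone H3 carries at promoters and enhancers in use. The cells were MIN6, an insulin-secreting tumour line of mouse with beta cell properties. The 8 genes were Gcg, Irx1, Irx2 and Ttr for alpha cells, Sst, Hhex and Rbp4 for delta cells, and Ppy for pancreatic polypeptide cells, out of 21883 protein-coding genes. A peak was given to a gene if it lay inside that gene, or within 50 kb of it with no other protein-coding gene nearer, so that the choice used position and not height. Where peaks overlapped or adjoined they were joined, over the 3 libraries, into 1 region, and a region counted as present in a library that had a peak in it. By this rule 15 of the 45943 regions near protein-coding genes belonged to the 8 genes, made of 7 peaks in the homozygous, 8 in the heterozygous and 10 in the wild-type library.

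The libraries came from cells with a homozygous ARID1A KO, a heterozygous ARID1A KO and the wild-type genotype, with 1 library of each. Per the labels, MIN6 cells were first given Cas9 by lentivirus and then a guide RNA against Arid1a, whose protein ARID1A belongs to the BAF form of SWI/SNF remodellers, and single clones were assigned to the 3 genotypes by PCR and Western blot. No comparison has a replicate or a p-value: genotype, clone and library cannot be told apart.

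The islet holds several endocrine cell types that each release mainly 1 hormone. Alpha cells make glucagon from the precursor encoded by Gcg and express the Iroquois homeobox genes Irx1 and Irx2, and Ttr, which encodes the thyroid hormone and retinol carrier transthyretin, is abundant in them. Delta cells make somatostatin (Sst), need the homeobox factor Hhex in mouse, and are rich in the retinol-binding protein gene Rbp4. Pancreatic polypeptide (Ppy) marks a further type. Beta cells normally keep the other hormone genes silent.

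By symbol, 6 of the 8 genes matched RefSeq promoter windows on GRCm38.p6, the assembly of mm10, which run from 250 bases before to 50 after a start site. For Irx2 and Sst that start site lies inside the gene as annotated, downstream of its outer end. The 4 promoters below are shown because the peaks at Gcg, Irx2 and Rbp4 stop, part or begin around them, and because the somatostatin promoter, on which no library had a peak, carries the best-known element of these genes. Each line runs 5′ to 3′ from 250 bases before the start site to 30 bases from it on. In Gcg (chr2:62483624-62483903, minus strand) capitals mark matches to the TATA box letters. In Sst (chr16:23890815-23891094, minus strand) they mark a cAMP response element, the site bound by CREB. In Irx2 (chr13:72628570-72628849, plus strand) and at the downstream start site of Rbp4 (chr19:38124782-38125061, minus strand) they mark bases inside a peak of at least 1 library.
Gcg: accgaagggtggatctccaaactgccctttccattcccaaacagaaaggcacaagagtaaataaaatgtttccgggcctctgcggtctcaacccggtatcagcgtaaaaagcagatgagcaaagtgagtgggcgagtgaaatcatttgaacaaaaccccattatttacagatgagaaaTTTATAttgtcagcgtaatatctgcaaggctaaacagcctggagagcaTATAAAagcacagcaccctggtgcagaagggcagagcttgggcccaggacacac
Sst: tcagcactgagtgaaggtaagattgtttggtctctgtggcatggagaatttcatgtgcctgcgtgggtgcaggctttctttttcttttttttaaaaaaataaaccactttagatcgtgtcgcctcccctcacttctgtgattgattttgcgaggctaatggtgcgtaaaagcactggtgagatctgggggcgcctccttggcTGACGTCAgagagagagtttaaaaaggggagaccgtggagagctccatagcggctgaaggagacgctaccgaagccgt
Irx2: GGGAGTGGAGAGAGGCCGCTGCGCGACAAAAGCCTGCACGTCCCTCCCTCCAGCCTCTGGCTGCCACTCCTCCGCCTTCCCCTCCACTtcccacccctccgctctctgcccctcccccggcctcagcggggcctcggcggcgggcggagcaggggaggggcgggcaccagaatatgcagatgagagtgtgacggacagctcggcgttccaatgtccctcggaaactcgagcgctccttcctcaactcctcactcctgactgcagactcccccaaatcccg
Rbp4: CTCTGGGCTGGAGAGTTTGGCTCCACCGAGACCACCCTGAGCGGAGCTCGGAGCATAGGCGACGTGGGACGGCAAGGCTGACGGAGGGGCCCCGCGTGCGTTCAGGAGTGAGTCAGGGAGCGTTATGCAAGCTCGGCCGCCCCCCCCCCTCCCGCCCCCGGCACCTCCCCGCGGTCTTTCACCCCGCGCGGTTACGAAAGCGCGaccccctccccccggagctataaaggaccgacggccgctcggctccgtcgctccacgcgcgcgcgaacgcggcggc

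The promoters differed in their letters. The GC content of the stretches printed was 46.8% for Gcg, 48.9% for Sst, 67.5% for Irx2 and 72.1% for Rbp4, against a median of 56.1% over 21262 full windows of protein-coding genes. Of the stretches not printed, Ppy had 56.1%, Hhex 75.7% and the upstream start site of Rbp4 40.7%, so that hormone promoters were not all low in GC. Matches were sought on both strands. A TATA box, TATAAA, lay 24 to 19 bases before the Gcg start site, with another match on the opposite strand further upstream, and others lay 31 to 26 bases before the start of Ppy and 28 to 23 before the downstream start of Rbp4. It occurred in 3 of the 7 windows of the members and in 12.6% of all windows. The full cAMP response element, TGACGTCA, lay 48 to 41 bases before the Sst start, the only 1 of the 7 windows with it, against 2.23% of all. Its shorter form TGACG, which overlaps it, was in 3 of 7 windows (all, 23.6%), the FOXA letters TGTTTAC or TGTTTGC in 1 of 7 (all, 7.42%), the AP-1 letters TGANTCA in 1 of 7 (all, 6.99%), the homeodomain letters TAATTA in 0 of 7 (all, 4.53%) and the E-box CANNTG in 4 of 7 (all, 69.0%). A match describes the letters and does not show that a factor binds there.

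**Figure D1:**
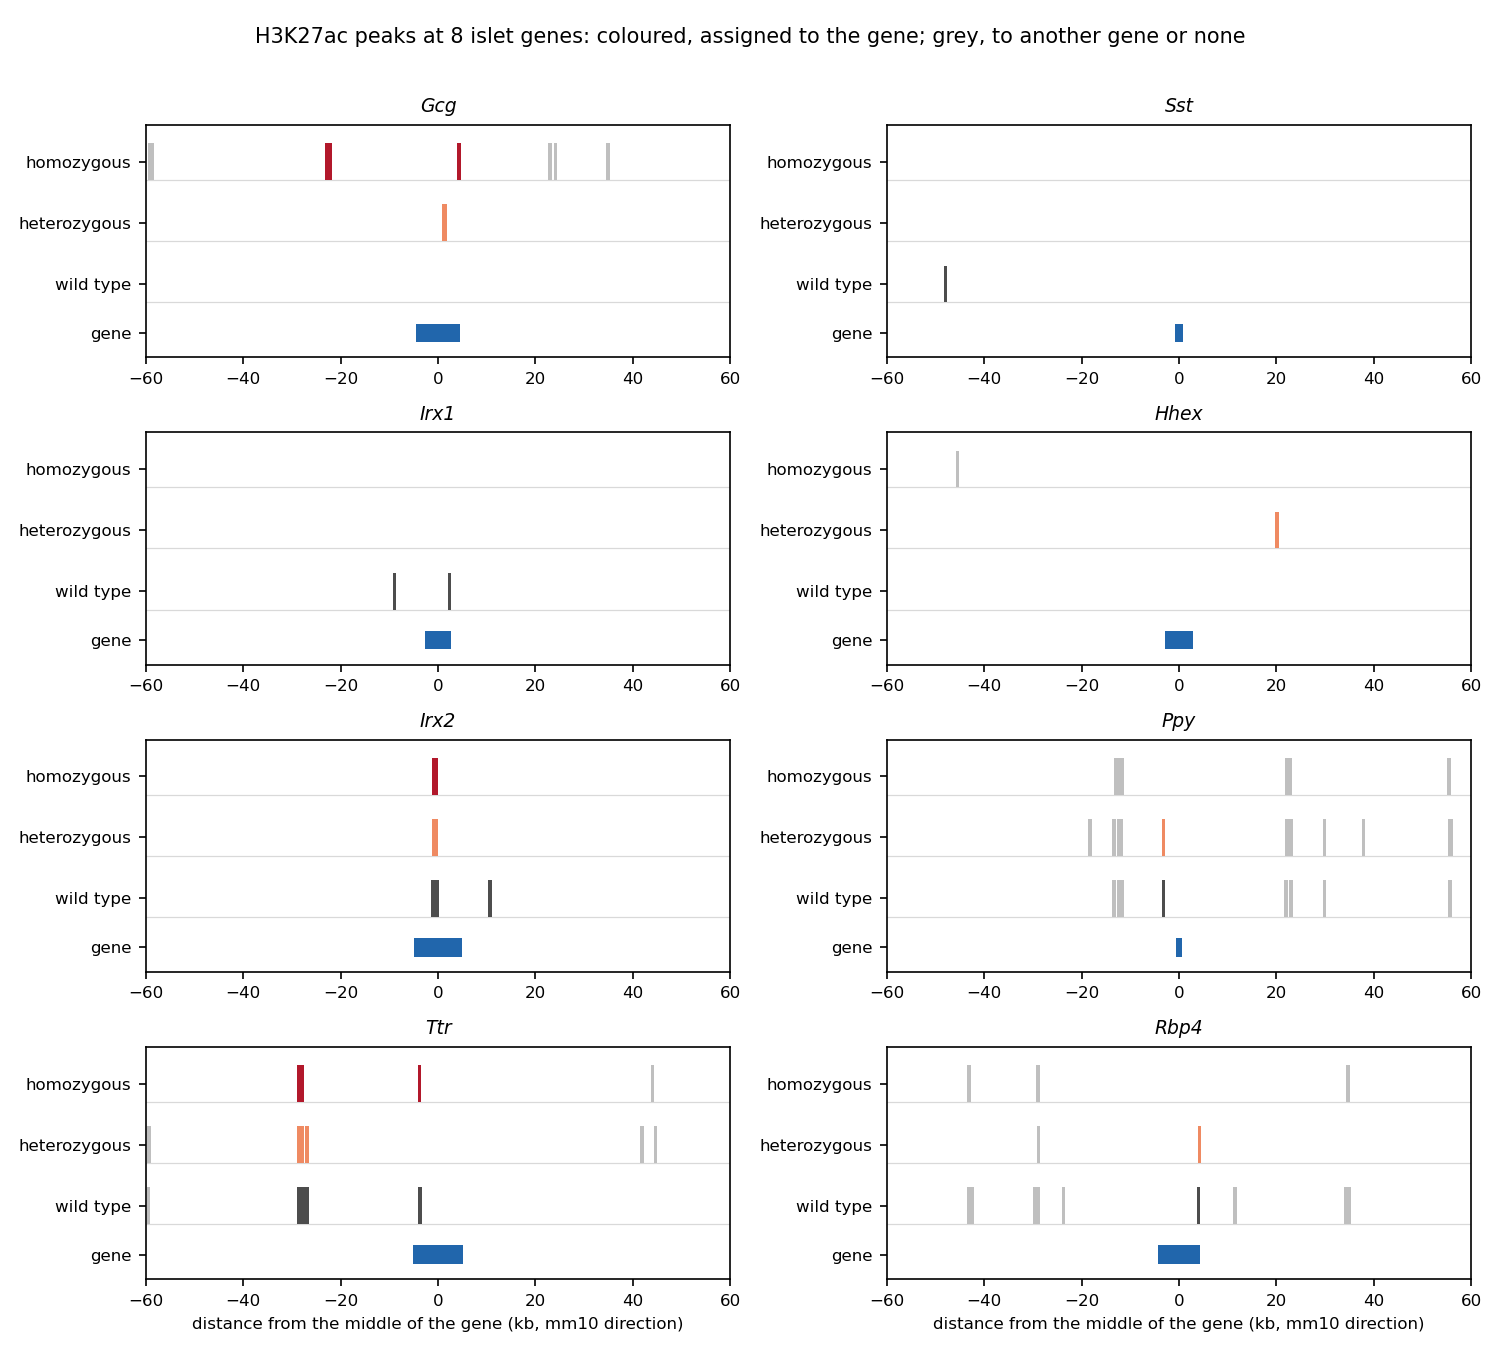
Peaks of each library around the 8 genes, by distance in kb from the middle of the gene along mm10, with the gene as a blue bar and rows for the homozygous, heterozygous and wild-type libraries. Coloured peaks belong to the named gene and grey ones to another gene or to none, and narrow features are widened to stay visible. Gcg has coloured peaks in the knockout rows and none in the wild-type row, Irx1 and Sst have them in the wild-type row alone, and Irx2 and Ttr have them in every row.

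Depth differed between the libraries. The lists held 34298 homozygous, 31365 heterozygous and 41490 wild-type peaks. Read totals were not given in the sources used here, but each peak's summit pile-up, the number of reads stacked at its highest point, and its local background could be solved from the deposited fold enrichment and −log10 p. The lowest background was 1.73 reads in both knockout libraries and 2.17 reads in wild type. The smallest pile-up called at that background was 10 reads in the homozygous, 11 in the heterozygous and 11 in the wild-type list, so that an absent peak means a pile-up too low to be called, not the absence of acetylation. The wild-type library, which had the highest background, also had the most peaks, and depth and genotype cannot be told apart in counts against it.

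The beta cell genes checked the line. Of 10 of them, 10 had a region in the homozygous, 9 in the heterozygous and 9 in the wild-type library, among them Ins1 with 4 regions in each and Ins2, the other insulin gene, with 3 in homozygous, 4 in heterozygous and 2 in wild type. Ucn3, a peptide of mature beta cells, had 2 regions in the homozygous library and 0 in the others. Of 5 acinar genes, which mark exocrine cells that the line should lack, 0 had a region in the homozygous or wild-type library and 2 had 1 region each in the heterozygous library, namely the elastase gene Cela1 and the trypsinogen gene Prss2. Over all genes, 59.1% had a region in the homozygous, 58.4% in the heterozygous and 63.2% in the wild-type library.

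At Gcg, on chromosome 2 at 62474530 to 62483653, the homozygous library had 3 regions, the heterozygous 1 and wild type 0. The homozygous peaks were not at the place of the heterozygous one. A homozygous peak of 437 bp, from 62483185 to 62483621, began 32 bp after the start site and ran to 468 bp after it, so that only the last 18 bases of the promoter window lay inside it. Its summit pile-up was 22 reads over a local background of 4.30, and its −log10 q was at or above that of 8.16% of the peaks in its list. It was thus among the weaker peaks of that library, and was absent from it where −log10 q of at least 10 was required or the lists were cut to equal length.

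The other homozygous peaks at Gcg formed a pair on the side of Dpp4, away from the start site. They ran from 62455879 to 62456675 and from 62456764 to 62457249, with pile-ups of 41 and 29 reads and fold enrichments of 7.53 and 5.38, and lay 17855 and 17281 bp from the gene. The first of them sat at the middle of its list, at 50.1% by −log10 q.

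The heterozygous peak was of another kind. It lay inside the gene, from 62479992 to 62480958, 2695 bp beyond the start site, with 101 reads at the summit over a background of 8.46 and a fold enrichment of 10.8. It ranked at 93.1% of its list and was the highest-ranked peak of the 8 genes in any library. No peak of the homozygous or wild-type library touched it.

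The homozygous peaks extended over the neighbours of Gcg. Within 100 kb of Gcg, whatever gene a region belonged to, there were 10 regions in the homozygous, 1 in the heterozygous and 0 in the wild-type library. Besides the 3 regions of Gcg, 4 belonged to Dpp4, which encodes the peptidase that inactivates GLP-1, another product of Gcg, and 3 to Fap, which encodes a related protease. The Dpp4 peak from 62411422 to 62412148, just inside the end of the gene nearest to Gcg, had 47 reads and ranked at 54.0%. The pile-ups of all 10 peaks ranged from 16 to 47 reads, and 2 of the 10 ranked in the upper part of the list, at or above its median. Over the whole stretch from Dpp4 to Fap, 245 kb long, the single wild-type peak, from 62333878 to 62334973 with 57 reads, lay inside Dpp4 at the end far from Gcg. The window was chosen after its values were seen. Of 21883 genes, 3448 had no wild-type region within 100 kb, and 326 of these had at least 1 homozygous region. With as many homozygous regions as Gcg there was 1, Gcg itself. Both cut-offs were the values of Gcg, so that Gcg had to meet them.

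**Figure D2:**
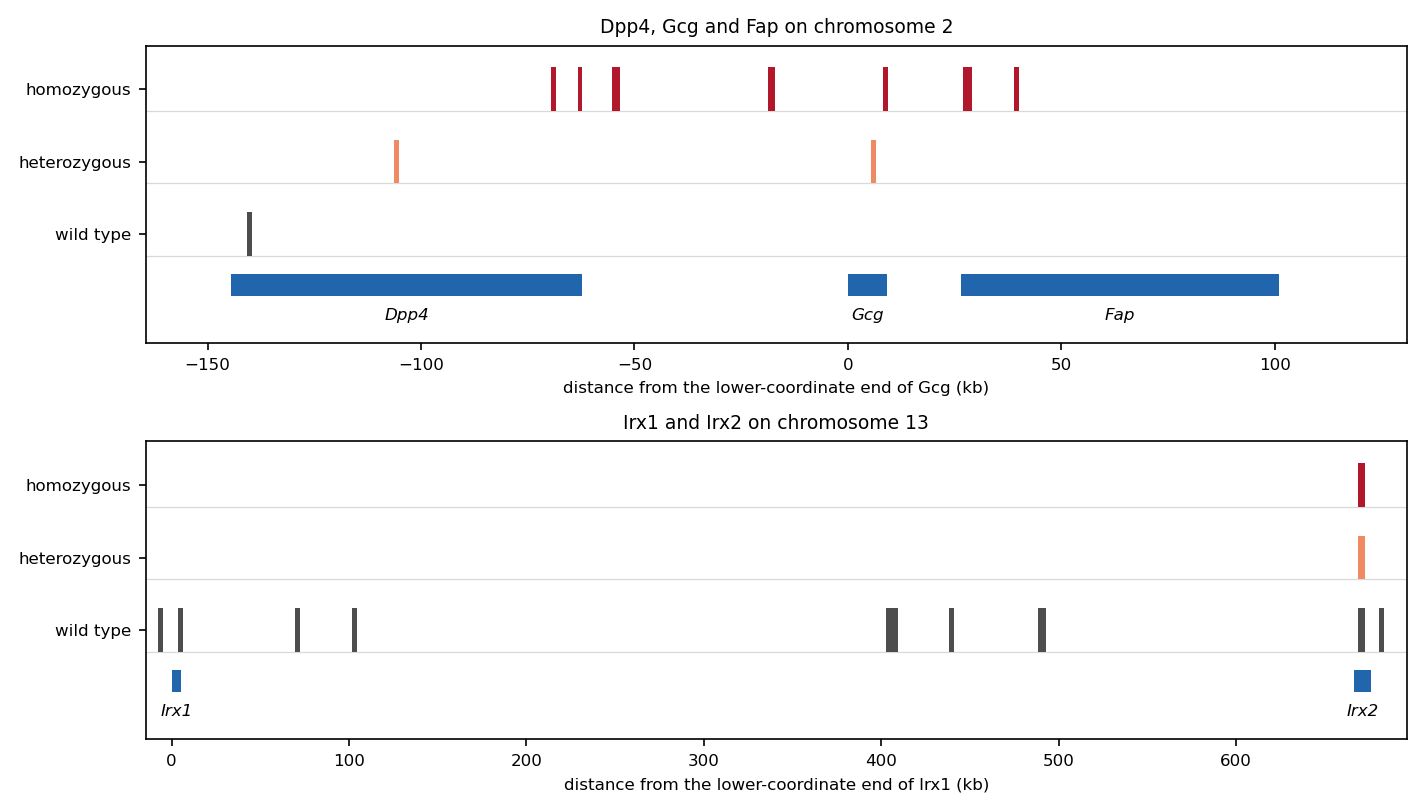
Peaks from Dpp4 to Fap (upper panel) and from Irx1 to Irx2 (lower panel) in the homozygous, heterozygous and wild-type libraries, by distance in kb from the lower-coordinate end of Gcg or Irx1. The homozygous row holds 10 regions around Gcg against 0 wild-type regions within 100 kb, and the wild-type row holds 8 regions between Irx1 and Irx2 against 0 in both knockout rows. Narrow peaks are widened to stay visible.

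Irx1 showed the reverse order. This Iroquois gene, on chromosome 13 at 71958232 to 71963723, had 0 regions in the homozygous, 0 in the heterozygous and 2 in the wild-type library. A wild-type peak of 756 bp, from 71962960 to 71963715, lay inside the gene at its higher-coordinate end, with 26 reads, and another of 605 bp, from 71951689 to 71952293, lay 5939 bp away on the other side, with 25 reads. At the background of the homozygous library these pile-ups would correspond to 20.8 and 20 reads. The smallest pile-up called in that library, 10 reads, applies at its lowest background only. The local wild-type backgrounds of the 2 peaks were 2.84 and 2.76 reads, above the lowest of 2.17. Those of the knockouts are not known where no peak was called, and the part of depth in this difference was not tested.

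The stretch between Irx1 and Irx2 had peaks in wild type alone. It is 661 kb long and holds no other protein-coding gene, and 0 homozygous, 0 heterozygous and 8 wild-type regions lay in it. The 8 wild-type peaks had 19 to 75 reads and fold enrichments of 2.69 to 7.25, and 3 of them ranked at or above the median of their list. Their local backgrounds ranged from 2.34 to 10.7 reads, where the lowest of that library was 2.17. The peaks with the most reads, 75 and 57, formed a pair from 72447769 to 72448493 and from 72449199 to 72449909. Local backgrounds at this pair were 10.7 and 10.4 reads. All 8 lay more than 50 kb from both genes and belonged to neither under the rule. Within 100 kb of Irx1 wild type had 4 regions and both knockout libraries 0. Of 14586 genes with at least 4 wild-type regions within 100 kb, 53 had none in either knockout. These 53 are 0.242% of all 21883 genes, which include those with fewer wild-type regions, that could not be counted. The cut-offs were the values of Irx1, so that Irx1 had to meet them. This stretch too was picked after its values were seen.

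Irx2, on chromosome 13 at 72624430 to 72634196, had peaks around the start site of its promoter window, 72628820, in all 3 libraries. In each, a pair of peaks flanked the start site and left it in a gap. The gap was 225 bp in the homozygous, 272 bp in the heterozygous and 274 bp in the wild-type library, and ran from -162 to +62 bp relative to the start site in the homozygous library, from -221 to +50 bp in the heterozygous and from -239 to +34 bp in wild type. The Irx2 sequence printed above covers most of the gap, and its 88 capitals are the bases inside the upstream homozygous peak, which reached closest to the start site. The heterozygous upstream peak covered 29 of these and the wild-type one 11.

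**Figure D3:**
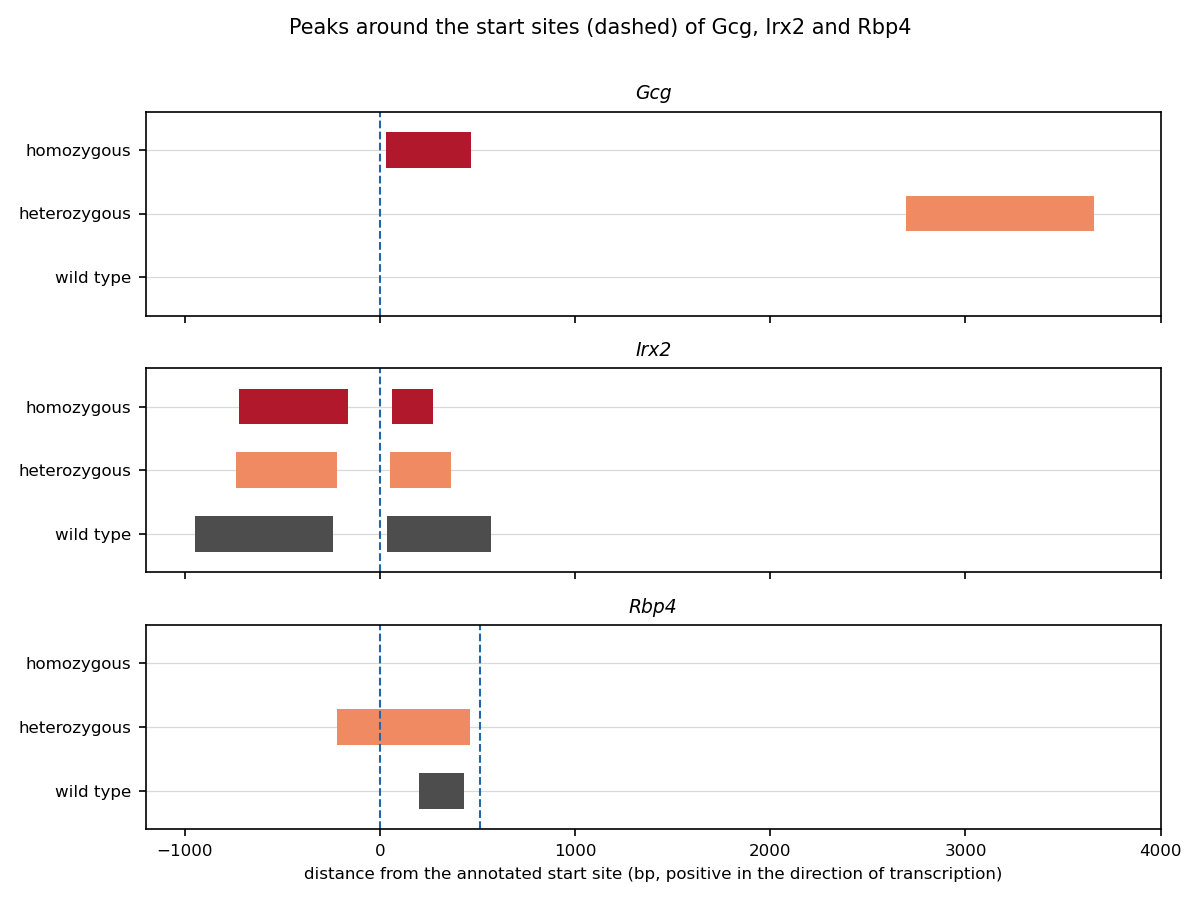
Peaks around the annotated start sites of Gcg, Irx2 and Rbp4 (dashed lines) in the homozygous, heterozygous and wild-type libraries, by distance in bp in the direction of transcription. At Irx2 each library has a peak on either side of the start site with a gap of 225 to 274 bp, at Gcg the homozygous peak begins 32 bp after the start site and the heterozygous peak 2695 bp after it, and at Rbp4 the homozygous row is empty. Rbp4 is drawn from the upstream of its start sites.

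Both Irx2 peaks were narrower in the knockouts. The upstream peak was 559 bp wide in the homozygous, 517 bp in the heterozygous and 709 bp in the wild-type library, and the downstream peak 209, 313 and 536 bp in the same order. The end of the downstream peak differed by -299 bp between the homozygous library and wild type and by -207 bp between the heterozygous library and wild type, so that it lay nearer to the start site in both knockouts. Upstream summits had 42 reads in the homozygous, 42 in the heterozygous and 76 in the wild-type library, and downstream summits 19, 27 and 49. At the background of the homozygous library the wild-type pile-ups would correspond to 60.7 and 39.1 reads. Depth and genotype cannot be told apart in these heights and widths. The homozygous downstream peak, at −log10 q of 7.35, was also lost where −log10 q of at least 10 was required or the lists were cut to equal length. The summit of the upstream peak lay 266 bp further from the start site in wild type than in the homozygous library, and 11 bp apart between the knockouts.

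The local background at the upstream peak also differed, at 3.18 reads in the homozygous, 3.86 in the heterozygous and 11.3 in the wild-type library. The authors' fold enrichment, which divides by that background, therefore ran the other way from the pile-up, at 10.3, 8.85 and 6.24. A further Irx2 region, from 72639521 to 72640354 and 5325 bp beyond the gene, was present in wild type alone, with 36 reads and a rank of 57.1%. Around Irx2, then, 2 of 3 regions were shared by all libraries and 1 was absent from both knockouts.

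Ttr, on chromosome 18 at 20664209 to 20674326, had the broadest acetylation of the 8 genes, which was present in all libraries. Between 20640246 and 20642790, on the lower-coordinate side of the gene, the homozygous library had a peak of 1393 bp, the heterozygous library peaks of 1411 and 778 bp, and wild type a single peak of 2413 bp. The summits of the highest peak of each library lay within 29 bp of each other, and had 142 reads in the homozygous, 123 in the heterozygous and 127 in the wild-type library. These peaks ranked at 88.9%, 87.5% and 86.3% of their lists, so that the place and rank of the highest summit were close and the width was not. The narrower heterozygous peak had 58 reads, ranked at 22.8% and had its summit 789 bp from the wild-type one. Their ends differed by -1066 bp between the homozygous library and wild type.

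Inside Ttr the libraries differed. A homozygous peak of 654 bp, from 20665115 to 20665768, had 35 reads, and a wild-type peak of 317 bp, which lay wholly within it, had 15, while the heterozygous library had none. The homozygous peak ranked at 47.1% of its list and the wild-type one at 7.32%. It was the only shared region of the 8 genes in which the homozygous peak was wider than the wild-type one, by 2.06 times.

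Sst, on chromosome 16 at 23889573 to 23891342, had 0 regions in the homozygous, 0 in the heterozygous and 1 in the wild-type library. That peak, from 23842391 to 23842590, was 200 bp wide, the least width in any list, lay 46983 bp from the gene and had 18 reads. It is a distant and weak peak, just inside the 50 kb that the rule allows, with −log10 q of 9.27, and no library had one at the gene itself. Bcl6, a transcriptional repressor gene within 100 kb, had a peak at its higher-coordinate end in all 3, with 216 reads in the homozygous, 169 in the heterozygous and 185 in the wild-type library.

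Hhex, the delta cell homeobox gene on chromosome 19 at 37434841 to 37440731, had 0 regions in the homozygous, 1 in the heterozygous and 0 in the wild-type library. The heterozygous peak, from 37457466 to 37458295, was 830 bp wide with 29 reads, ranked at 41.7% and lay 16735 bp beyond the gene. No library had a peak in its promoter window. On its other side Kif11, a mitotic kinesin gene, had a pair of peaks at its lower-coordinate end in each library. The peak that reached into Kif11 had 149 reads in the homozygous, 97 in the heterozygous and 146 in the wild-type library. The peak just outside Kif11 had 130, 77 and 173 in the same order.

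Rbp4, on chromosome 19 at 38116620 to 38125321, had 0 regions in the homozygous library and 1 in each of the others, near its start sites. The heterozygous peak, from 38124858 to 38125543, was 686 bp wide with 28 reads, covered the upstream start site at 38125321 and ended 47 bp before the downstream one at 38124811. The wild-type peak, from 38124893 to 38125120, was 228 bp wide with 16 reads and lay wholly inside the heterozygous one, so that the heterozygous peak was 3.01 times as wide. The wild-type peak lay between the start sites and covered neither. It covered 169 bases of the downstream promoter window, against 204 for the heterozygous peak. At the homozygous background its pile-up would correspond to 12.8 reads, close to the smallest called there. Its −log10 q was 7.47, so that with a minimum of 10, or lists of equal length, Rbp4 had a peak in the heterozygous library alone.

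Ppy, on chromosome 11 at 102099931 to 102101319, had 0 regions in the homozygous library and 1 in each of the others, between 2313 and 2406 bp from the gene. The heterozygous peak, from 102097326 to 102097525, was 200 bp wide with 26 reads, and the wild-type peak, from 102097306 to 102097618, was 313 bp wide with 31 reads. Their summits were 16 bp apart and their local backgrounds were 5.00 and 4.98 reads. The heterozygous peak had −log10 q of 8.79, so that with a minimum of 10 Ppy had a peak in wild type alone. The neighbouring gene Pyy, which encodes the related hormone peptide YY, had 2 regions in each library.

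**Figure D4:**
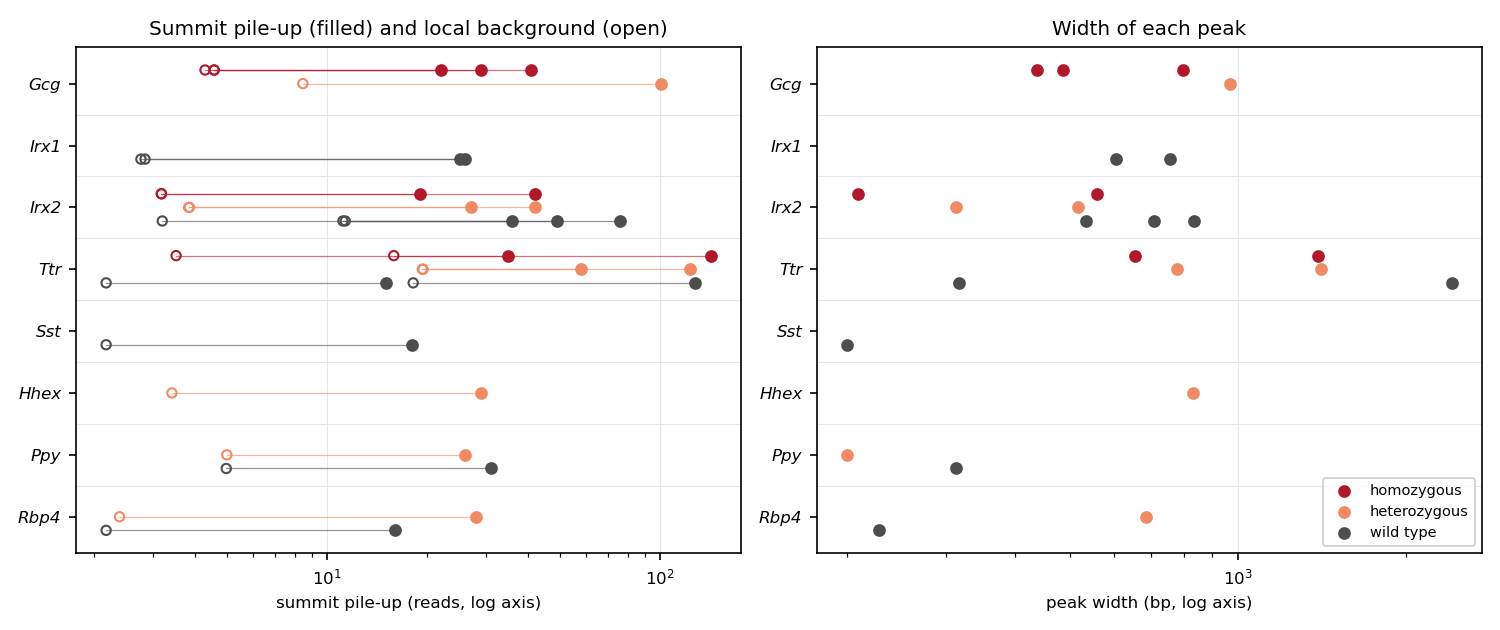
Left, summit pile-up in reads (filled) joined to the local background in reads (open) for every peak of the 8 genes. Right, peak width in bp, with log axes in both panels and rows for the homozygous (top), heterozygous and wild-type (bottom) libraries within each gene. The highest pile-ups are those of Ttr at 123 to 142 reads and of the heterozygous peak of Gcg at 101 reads, and the open points of 2 wild-type Irx2 peaks sit near 11 reads, away from those of the knockouts.

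Against wild type, the homozygous library gained 3 of its 7 regions at the 8 genes (42.9%, Wilson 95% interval 15.8 to 75.0%), where 24.1% of the homozygous regions of all genes were gained. It lost 6 of 10 wild-type regions (60.0%, 31.3 to 83.2%), where 36.9% were lost over all genes. The 3 gains were all at Gcg, and the losses were 2 at Irx1 and 1 each at Irx2, Sst, Ppy and Rbp4. The intervals cover counting error only and take regions as independent, although all 3 gains lie at 1 gene. They hold the shares over all genes. Of the 10 wild-type regions 7 lay below the median −log10 q of their list, and 5 of these 7 were lost, where 64.0% of all such weaker regions were. In the stronger part 1 of 3 was lost, against 13% over all genes. For the gains the counts were 2 of 4 weaker homozygous regions (all, 45.3%) and 1 of 3 stronger ones (all, 5.31%).

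The heterozygous library gained 2 of its 7 regions (28.6%, 8.2 to 64.1%), at Gcg and Hhex, where 18.7% were gained over all genes. It lost 5 of 10 wild-type regions (50.0%, 23.7 to 76.3%), 2 at Irx1 and 1 each at Irx2, Ttr and Sst, where 40.2% were lost over all genes. These intervals too hold the shares over all genes. Of the 7 wild-type regions below the median −log10 q of their list, 4 were lost, where 69.7% of all such regions were. In the stronger part 1 of 3 was lost (all, 14.3%). For the gains the counts were 1 of 4 weaker heterozygous regions (all, 35.2%) and 1 of 3 stronger ones (all, 4.93%). The homozygous and heterozygous comparisons share the wild-type library.

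Between the knockouts, whose lowest backgrounds were alike, 4 of 7 homozygous regions were absent from the heterozygous library (57.1%, 25 to 84.2%), 3 at Gcg and 1 at Ttr, where 33.2% were over all genes. In the other direction 4 of 7 heterozygous regions were absent from the homozygous library (57.1%, 25 to 84.2%), 1 each at Gcg, Hhex, Ppy and Rbp4, where 24.5% were over all genes. The first of these intervals holds the share over all genes, and the second begins just above it. Neither is a test, since regions of 1 gene are not independent and the genes were chosen with earlier results known. Of the 4 heterozygous regions below the median −log10 q of their list, 3 were absent from the homozygous library, against 44.0% over all genes. In the stronger part 1 of 3 was absent, against 8.25%. In the first direction the counts were also 3 of 4 (all, 59.9%) and 1 of 3 (all, 9.64%). The 3 regions in common were the pair at the Irx2 start and the one beside Ttr. They were also the only 3 of the 15 regions that all libraries shared, where 39.7% of the regions of all genes were. The remaining 12 comprised 3 in the homozygous library alone, 2 in the heterozygous alone, 4 in wild type alone, 1 shared by homozygous and wild type and 2 shared by heterozygous and wild type.

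Per gene, 3 of the 8 had any region in the homozygous, 6 in the heterozygous and 6 in the wild-type library, where 59.1%, 58.4% and 63.2% of all genes did, in the same order. Only Irx2 and Ttr had regions in every library, a pattern of 54.0% of all genes. Gcg alone had regions in both knockouts and none in wild type (0.763% of genes), Irx1 and Sst in wild type alone (3.84%), Ppy and Rbp4 in heterozygous and wild type (2.49%), and Hhex in the heterozygous library alone (1.11%). A peak touched the promoter window of 2 of the 6 genes that have one in each library. These were Gcg and Irx2 in the homozygous library and Irx2 and Rbp4 in the heterozygous and wild-type libraries, where 46.2%, 44.8% and 48.4% of all genes had such a peak. Of the 7 beta cell genes with a promoter window, only 1 had such a peak in each library, so that a low count is not particular to the 8 genes.

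The other genes of these cell types were mixed. Of 11 further genes of alpha cells and their neighbourhood, 4 had a region in the homozygous, 5 in the heterozygous and 6 in the wild-type library. Against wild type, 9 of 16 homozygous regions were gained and 9 of 16 wild-type regions lost in the homozygous library, where 24.1% and 36.9% were over all genes. Of these gains 4 were at Dpp4 and 3 at Fap. They are the regions already described around Gcg, so that the gained count largely repeats that stretch. In the heterozygous library 6 of 15 were gained and 7 of 16 lost, where 18.7% and 40.2% were over all genes. The membrane protein gene Tm4sf4 had 0 regions in the homozygous, 1 in the heterozygous and 2 in the wild-type library, the pattern of Ppy and Rbp4. Pou3f4, a homeobox factor of alpha cells, had its single region in wild type alone, as Irx1 and Sst did. Fap had 3 regions in the homozygous library and 0 in the others. Pcsk2, the convertase that releases glucagon, had 5, 7 and 8 regions in the homozygous, heterozygous and wild-type libraries, Etv1 4, 3 and 2, and Dpp4 4, 1 and 1. Irx4, Gc and Slc38a5 had none in any library.

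Of 10 further genes of delta, pancreatic polypeptide and epsilon cells, 6 had a region in the homozygous, 4 in the heterozygous and 5 in the wild-type library, with 4 of 13 regions gained and 2 of 11 lost in the homozygous and 2 of 9 gained and 4 of 11 lost in the heterozygous against wild type. The shares over all genes were the same 24.1% gained and 36.9% lost in the homozygous and 18.7% gained and 40.2% lost in the heterozygous library, here and for the lists that follow. The leptin receptor gene Lepr had 1 region in the homozygous library and 0 in the others, and the calcium-sensing receptor gene Casr had 3 in the homozygous, 0 in the heterozygous and 1 in wild type. The prohormone convertase gene Pcsk1 had 3, 2 and 3 regions in the same order, and the fatty acid activating enzyme gene Acsl1 had 1, 1 and 2. The ghrelin gene Ghrl and its receptor gene Ghsr had none in any library.

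Pan-endocrine and progenitor factors had regions in 9 of 10 cases in each library, and the exception, the progenitor factor Neurog3, had none. Over all genes the share was 59.1% in the homozygous, 58.4% in the heterozygous and 63.2% in the wild-type library. Against wild type the homozygous library gained 4 of 29 and lost 15 of 40 of their regions, and the heterozygous gained 5 of 29 and lost 16 of 40, so that the lost shares were near those over all genes. Isl1, needed by all islet cell types, had 5 regions in the homozygous, 5 in the heterozygous and 10 in the wild-type library, and Myt1 2, 2 and 7. Pax6, which activates the glucagon gene, had 6, 2 and 6, Rfx6 4, 6 and 6, and Nkx2-2 3, 5 and 4. Of the beta cell genes, the homozygous library gained 9 of 33 regions and lost 7 of 31 and the heterozygous gained 5 of 23 and lost 13 of 31, with the glucose transporter gene Slc2a2 at 8, 1 and 5, Slc30a8 at 4, 5 and 7 and Nkx6-1 at 3, 3 and 4. The median number of regions was 0 in the homozygous, 1 in the heterozygous and 1 in the wild-type library for the 8 genes, against 3, 2 and 2.5 for the beta cell genes and 1 in each library over all genes.

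**Figure D5:**
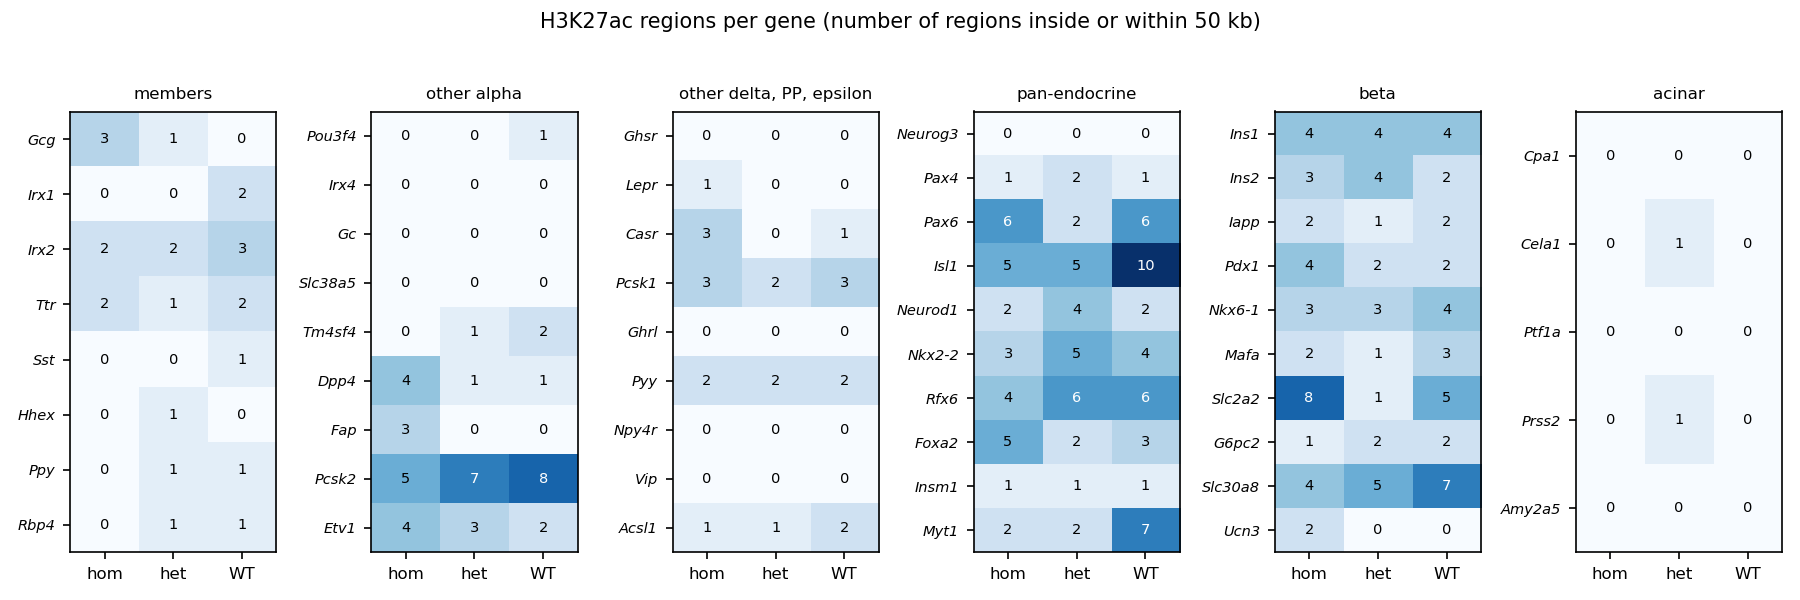
Number of H3K27ac regions inside or within 50 kb of each gene in the homozygous (hom), heterozygous (het) and wild-type (WT) libraries, by cell type list, for the genes reported here. The 8 genes have 0 to 3 regions each, the beta cell and pan-endocrine genes up to 10, and the acinar genes 0 or 1.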

How the data were processed

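H3K27ac ChIP-seq was deposited as 1 peak list per library for 3 MIN6 libraries. Peaks were called by the authors with MACS2 on mm10, per the submitters' processing notes, and each list names 1 library. The aligner, control, versions and cut-off used were not given in the sources used here. Per peak the deposited lists give a score, a fold enrichment (a ratio over local background within the library), −log10 p and −log10 q, and the summit. The deposited score was 10 times −log10 q in nearly all peaks. Wild-type peak names carry a tag, GAL4, not explained in the labels.

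Summit pile-up n and background b were solved from fold = (n + 1)/(b + 1) and a Poisson tail, to 0.001 in −log10 p. This gave values for 34298 of 34298 homozygous, 31364 of 31365 heterozygous and 41490 of 41490 wild-type peaks. Heights were not tested between libraries, and pile-ups depend on depth. Peaks were joined from 1 bp of overlap or contact, and assigned to protein-coding genes of RefSeq GRCm38.p6 on chromosomes 1 to 19, X and Y. That gene table holds no exons, so exon, intron and UTR are not stated. Gained means present in the first library and absent from the second, and lost the reverse. The merge was checked against bedtools 2.31.1, and the pile-up recovery and gene assignment were tested on simulated data. Python 3.11.15, numpy 2.4.6, pandas 2.3.3, scipy 1.17.1 and matplotlib 3.10.9 were used. All 8 genes are named. Of the other lists, genes whose presence differed between libraries and at most 5 with the most regions are named. Members and lists were chosen with earlier results of these data known. List genes with no region in any library were named after their values were seen. Some list genes are in the counts of their lists but are not reported here by name.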

Additional observations from a re-analysis of the deposited data

How the results depend on the processing

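No paired analysis was possible because each genotype has 1 library, and for the same reason no library could be left out. Against wild type the homozygous library gained 3 and lost 6 regions of the 8 genes, and the heterozygous gained 2 and lost 5. When peaks had to overlap by 50% of each other and were counted as peaks, 5 were gained in the homozygous and 4 in the heterozygous library; with lists of equal length by −log10 q the heterozygous library lost 3, and the cause was not tested. With the other planned settings (25 kb, 100 kb, a peak within 1 kb, −log10 q of at least 10, fold of at least 4, distance to the nearer gene end), all counts were within 1.5 times those reported, in all 3 comparisons. Similar counts did not always mean the same regions. With −log10 q of at least 10, the Gcg start-site peak left the homozygous gains. The region inside Ttr, whose wild-type peak had −log10 q of 6.61, entered them, so that the gains were not all at Gcg. The Sst and Rbp4 regions left the homozygous losses, and the downstream Irx2 region entered them.

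Alternatives for the stretches picked after seeing the data were also chosen after seeing them. Around Gcg the homozygous library had 6 regions within 50 kb in place of 10 within 100 kb. Within 200 kb the homozygous library had 13, the heterozygous 3 and wild type 3. Between Irx1 and Irx2 the wild-type library had 5 regions with −log10 q of at least 10 and 5 with lists of equal length. With fold enrichment of at least 4 it had 6, and both knockouts had 0 under each of these settings. The wild-type peaks of Rbp4 and Sst and the one inside Ttr had −log10 q under 10, so that depth limits what can be said of them.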
